A study of Gallus gallus with 32 samples.

Results

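Liver transcripts of female and male broiler chickens were compared in 32 messenger RNA libraries, with each library's sex read from HINTW, a transcript of the female-specific W chromosome. A library with HINTW above 1 TPM (the deposited unit, a length-corrected share of each library's transcripts) was called female, and a library with HINTW at 0 was called male. This gave 12 female and 20 male libraries, and no library fell outside both rules. HINTW ran from 20.08 to 37.73 TPM in the female libraries, with a median of 28.5, and was 0 in all 20 male libraries, so no library lay near the limit of 1 TPM. The groups were thus chosen by HINTW, which was left out of the tests. The labels give neither sex nor age, and nothing in them says that the libraries came from separate birds, so the p-values are about spread among libraries, which may be technical.

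All libraries came from liver of Arbor Acres broilers, chickens bred for fast growth and meat. The study fed 4 diets with 0 (control), 1.8, 9 or 18 g/kg of added arginine, and 8 libraries of each diet were analysed. The called females were 2 of 8 libraries on the control diet, 3 of 8 at 1.8 g/kg, 4 of 8 at 9 g/kg and 3 of 8 at 18 g/kg. Diet group was therefore a covariate in the fitted comparisons, except in an alternative fit without a diet term. Sex is not one of the factors that the labels name, and the comparison is set by the birds that happened to be sampled.

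In birds the female is the heterogametic sex, with one Z and one W chromosome, and the male carries a pair of Z chromosomes. The W chromosome is small and holds mostly genes that still have a partner on the Z, such as ATP5F1AW, HNRNPKL and SPIN1L. Birds have no chromosome-wide silencing comparable to the inactive X of mammals, so the Z gene dose differs between the sexes, and how far transcript levels follow it varies from gene to gene. The liver of a laying hen makes yolk proteins such as the vitellogenins under oestrogen, a programme that starts at sexual maturity.

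Other W genes divided the libraries as HINTW did. Of 61 other genes that the reference table places on W and that passed the filter (mean TPM of 1 or more), 41 had every female library above every male library. In 38 of these 41 every male library stayed below 1 TPM, and in 12 every male library was at 0. The most abundant, ATP5F1AW, encodes the W copy of the alpha subunit of mitochondrial ATP synthase and measured 257 ± 40.5 TPM (SD, n = 12) in females and 14.6 ± 11.5 TPM (n = 20) in males. LOC107049046 measured 220 ± 34.5 TPM against 0.107 ± 0.158 TPM. LOC121108821, annotated as a pseudogene, measured 93.0 ± 18.2 TPM in females and was listed at 0 in all males. Each female library had 40 or 41 of the 41 genes above 1 TPM, and each male library had 1 to 3 of them. These 41 were picked by their separation of the called groups, so they could not go against a call. Over all 61 genes, each female library had 56 to 60 above 1 TPM and each male library 12 to 17. The 38 with every male library below 1 TPM, such as UBAP2L2, passed the filter only through the female libraries. The split over the 61 genes was therefore in large part set by the filter. The 41 genes were 25 protein-coding genes, 15 pseudogenes or long noncoding RNAs and 1 microRNA gene.

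That microRNA gene was MIR122-2, a row named for miR-122, a microRNA known as abundant in liver. The row had 3.09 to 24.98 TPM in females, with a median of 15.4, and at most 0.18 TPM in males. The libraries were selected for poly(A) tails, so the row describes longer RNA over that locus and not the mature microRNA.

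A second set of W-assigned rows did not follow sex. MBD2, a methyl-CpG binding protein, measured 70.7 ± 15.2 TPM in females and 73.6 ± 19.1 TPM in males. NEDD4L, a ubiquitin ligase, measured 28.6 ± 23.0 TPM against 27.7 ± 19.9 TPM, and SKA1, a kinetochore protein, 3.60 ± 1.91 TPM against 4.26 ± 2.65 TPM. All 3 were present in every male library, so which gene copies these rows measure is not known. In all, 13 of the 61 W-assigned genes were not called between the groups and 48 were called higher in female libraries (78.7%). These W counts describe the call of sex, are in large part set by the filter and are no result about the liver.

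**Figure D1:**
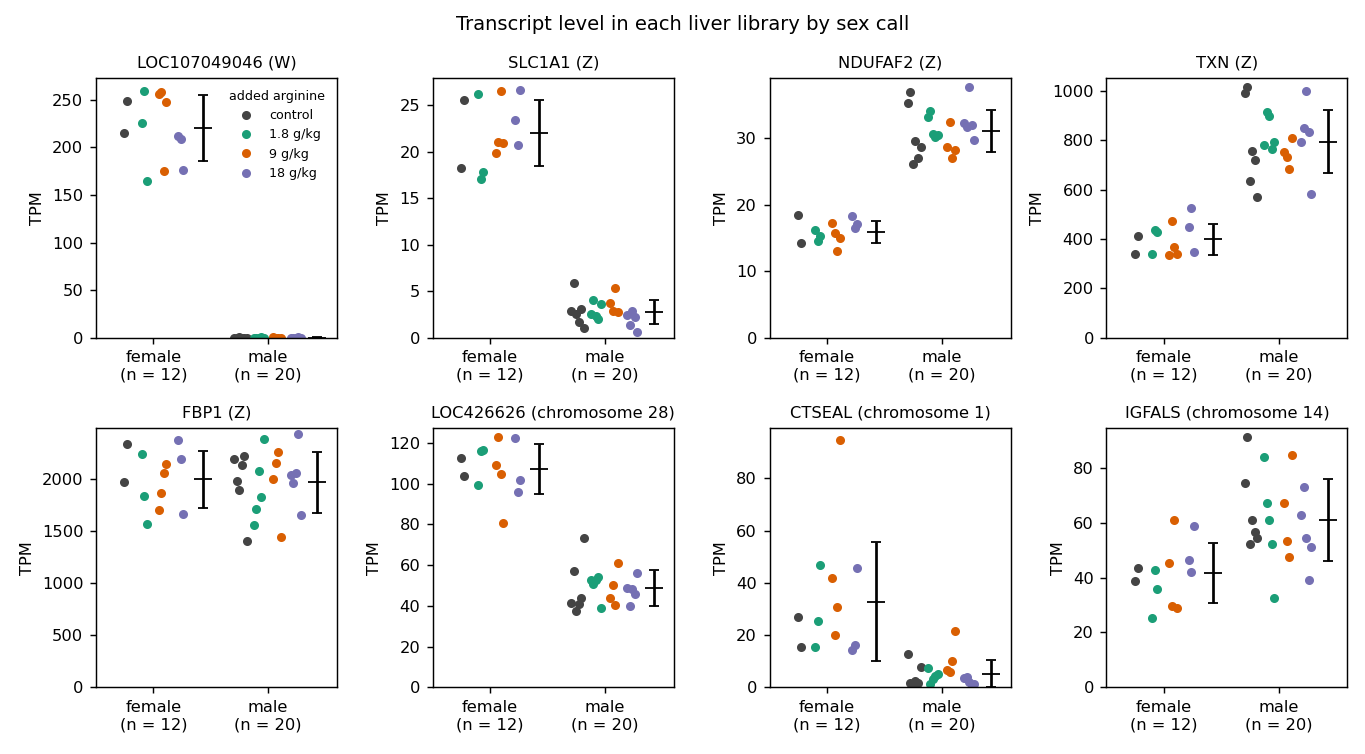
Level in TPM (y axis, linear from 0) of 8 transcripts in each of the 12 female and 20 male liver libraries (x axis), coloured by diet, with mean ± SD beside each group. LOC107049046 separates the groups, SLC1A1 runs from 17.1 to 26.59 TPM in females and from 0.65 to 5.89 TPM in males, NDUFAF2 and TXN lie near the 1 to 2 ratio without overlap, and the FBP1 female range lies within the male range.

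Over all 11338 tested genes, limma on log2(TPM + 1) with diet in the model called 271 genes (2.39%) at a Benjamini-Hochberg adjusted p below 0.05. Of these, 79 were higher in females (0.697%) and 192 were lower (1.69%). The 192 lower genes were 177 on Z and 15 on autosomes, and the 79 higher genes were 48 on W, 25 on autosomes and 6 on Z. None of the 15 tested mitochondrial genes and none of the 110 genes without a chromosome was called (1 and 7 of them had an unadjusted p below 0.05). Female and male libraries did not overlap for 64 genes (0.564%), of which 41 were on W, 22 on Z and 1 on an autosome. The standard error of a log2 difference had a median of 0.12. Female and male libraries detected like numbers of genes at 1 TPM or more, 11015 ± 286 and 11007 ± 319, and the mitochondrial genome took 21.6% and 21.9% of TPM. Fewer cells of a type and less RNA per cell cannot be told apart in bulk liver.

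Z-linked transcripts were lower in females as a group, but mostly by less than the gene dose. Of 513 tested Z genes, 183 were called (35.7%), 177 lower (34.5%) and 6 higher (1.17%) in females, against 15 lower (0.141%) and 25 higher (0.235%) of 10639 autosomal genes. The median Z difference was -0.35 on the log2 scale, and the median Z gene had 72.3% of its male TPM in females. The autosomal median was 0.01, with the median gene at 100.3%. Differences below 0 were found for 448 of the 513 Z genes, called or not.

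The spread among Z genes was wide. In females 6 Z genes had up to 40% of the male level, 119 had 40 to 60%, 194 had 60 to 80%, 137 had 80 to 100%, 39 had 100 to 125% and 18 had more. For the 313 Z genes whose mean TPM was 5 or more, the 95% interval of each difference was set against 0 and -1. Without a pseudocount, -1 is the log2 value of 1 gene copy against 2. The interval lay below 0 for 191 of the 313 genes (61.0%), against 2.88% of autosomal genes at that level. For 133 of the 191 it also lay above -1. The pseudocount of 1 moves the value for 1 copy against 2 above -1, most at low TPM. Some of the 133 may therefore lie at the level of 1 copy. RGP1, for instance, was at 54.5% of the male level, with an interval from -0.92 to -0.64. For 58 the interval reached -1 or below. Another 111 genes had an interval that held 0 and stayed above -1, 5 had one that held both values and 6 had one above 0. Abundant Z genes were lower on the log2 scale, with medians of -0.26, -0.34, -0.38 and -0.50 from the least to the most abundant of 4 equal classes. The percent scale did not show the same order, with medians of 74.2, 72.2, 74.6 and 69.2% of the male level. The pseudocount shrinks log2 differences most in genes near 1 TPM, and its part in the order was not tested.

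The same division was present library by library. For each library the median deviation of Z genes from their 32-library mean was set against that of autosomal genes. This value was -0.23 ± 0.06 (SD, n = 12) in females and 0.14 ± 0.07 (n = 20) in males, on the log2 scale. The highest female value, -0.15, lay below the lowest male value, -0.04, so the groups did not overlap. Z genes took 3.67 ± 0.459% of TPM in females and 4.29 ± 0.566% in males, and these shares overlapped between the groups.

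**Figure D2:**
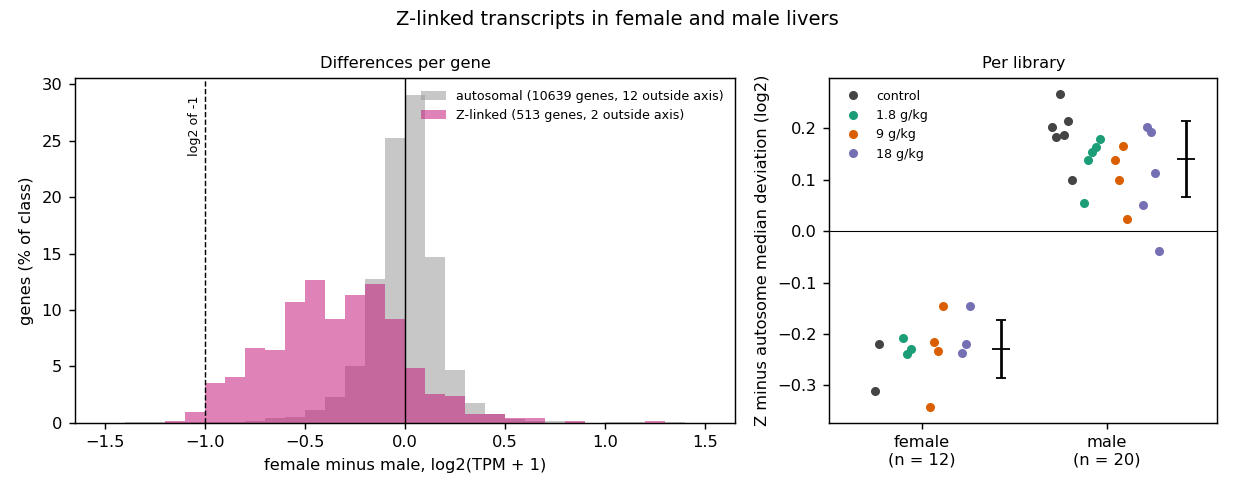
Left, share of genes in each 0.1-wide bin of the female minus male difference in log2(TPM + 1), for 513 Z-linked and 10639 autosomal genes, with genes beyond 1.5 to either side left off the axis. Right, the median Z deviation minus the median autosomal deviation of each library (log2), coloured by diet, with mean ± SD. Z genes spread from about the dashed line at -1 to 0 with a median of -0.35, and the 12 female libraries all lie below the 20 male libraries.

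The 10 lower Z genes with the smallest p had differences from -1.01 to -0.78, near the log2 value of 1 copy against 2. NDUFAF2, an assembly factor of respiratory complex I, ran from 13.05 to 18.47 TPM in females, with a median of 16.0, and from 26.15 to 37.8 TPM in males, with a median of 30.6. The groups did not overlap, and the difference was -0.91 ± 0.06 (SE; limma adjusted p = 5.5e-13). MRPL50, of the large mitochondrial ribosomal subunit, had a median of 33.1 TPM in females (25.62 to 43.18) and 67.7 TPM in males (48.66 to 96.01). TXN, the redox protein thioredoxin, had a median of 390 TPM in females (335.88 to 524.8) and 787 TPM in males (570.72 to 1016.4). Neither overlapped between the groups, and the female means were 49.1% and 50.4% of the male means. Similar differences held for CETN3, a centrin of the centrosome (-0.92 ± 0.08), DCTN3, a subunit of the dynactin motor complex (-0.98 ± 0.09), and HINT2, a mitochondrial hydrolase of the histidine triad family (-1.01 ± 0.10). RGP1, which takes part in retrograde transport to the Golgi, differed by -0.78 ± 0.07, and its female libraries, 4.44 to 7.49 TPM, all lay below the males, 7.98 to 13.32 TPM. RPS23 and ATP5F1AZ complete the 10 Z genes with the smallest p, all with a limma adjusted p of 6.54e-09 or less, and RPS23 was the one of the 10 whose groups overlapped.

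The ribosome and the respiratory chain draw their subunits from many chromosomes, and the called members were all on Z. All 4 tested Z-linked cytosolic ribosomal protein genes, RPL17, RPL37, RPS23 and RPS6, were called lower in females, beside 34.5% of all Z genes. None of 66 on autosomes was called in limma (1 had an unadjusted p below 0.05), where 0.376% of all autosomal genes were called, so a count of 0 is near that background here and in the next families. RPL37, at -0.52, lay within the range of the autosomal members, -0.65 to 0.08. RPL17 measured 644 ± 75.01 TPM in females and 1202 ± 148 TPM in males, and RPS23 measured 896 ± 119 against 1614 ± 223 TPM. All 5 Z-linked mitochondrial ribosomal protein genes were called lower, with a median of 50.9% of the male level, and none of 67 on autosomes (0 at an unadjusted p below 0.05), whose median was 94.2%. All 4 Z-linked subunits of the respiratory chain and ATP synthase were lower, ATP5F1AZ, ATP5I, COX7C and NDUFS4, and none of 68 on autosomes was called (1 had an unadjusted p below 0.05). COX7C, of cytochrome c oxidase, measured 866 ± 136 TPM against 1470 ± 196 TPM, and NDUFS4, of complex I, 56.2 ± 6.62 against 101 ± 20.1 TPM. The median autosomal subunit had 100.2% of its male level. All Z-linked members of these families lie in the most abundant of the 4 equal classes of Z genes. In that class 62 of 128 were called lower in females. These families were picked after Z results were seen, and the counts describe them.

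Where a W partner was measured, the Z and W rows could be added. The Z gene HNRNPK, an RNA-binding protein of the nucleus, measured 51.1 ± 9.01 TPM in females and 72.0 ± 18.6 TPM in males, or 71.0%. Its W partner HNRNPKL added 22.1 ± 7.02 TPM in females and 0.0285 ± 0.0399 TPM in males. In the female 18 g/kg replicate 4 HNRNPKL was 2.41 TPM, against 18.67 to 29.6 TPM in the other females. The sum of both rows was 73.2 ± 10.6 against 72.0 ± 18.6 TPM, or 102%. The sums in females, 60.67 to 91.57 TPM, lay within those in males, 44.9 to 116.56 TPM. SPIN1, a reader of histone methylation, was at 61.1% of the male level alone and at 96.6% with SPIN1L added. UBAP2, a ubiquitin-binding protein, was at 66.7% alone and at 104% with UBAP2L2 added.

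The other 2 pairs behaved less simply. ATP5F1AZ was at 50.1%, with 357 ± 60.6 TPM in females and 713 ± 126 TPM in males, and the sum with ATP5F1AW was 614 ± 98.7 against 728 ± 124.8 TPM, or 84.4%. The ATP5F1AW row was above 0 in every male library, at 0.51 to 45.35 TPM, so reads of the Z copy may be counted in it. UBE2R2, a ubiquitin-conjugating enzyme, was at 72.2%, while its partner row UBE2R2L ran from 2.48 to 21.11 TPM in females and from 0 to 17.39 TPM in males. That sum was 13.3 ± 5.93 against 11.7 ± 5.11 TPM and is not informative about sex. No test was made of the sums, and near-identical copies can share reads in any of these pairs. The 5 pairs were chosen after values were seen.

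**Figure D3:**
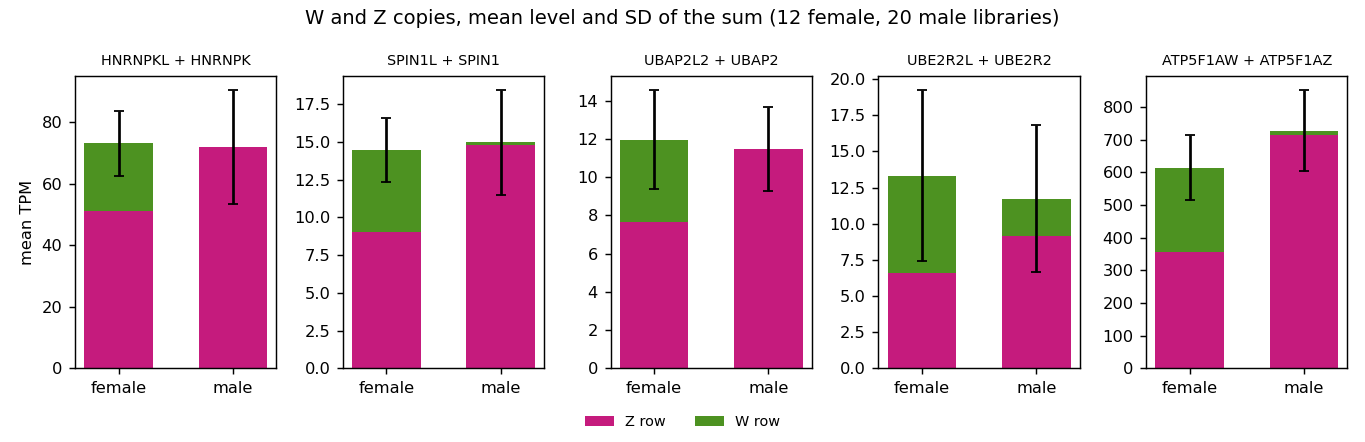
Mean TPM of the Z row and the W row, stacked, for 5 pairs in 12 female and 20 male libraries, with the SD of the summed TPM as the error bar. For HNRNPK, SPIN1 and UBAP2 the female stack reaches 102, 96.6 and 104% of the male one, and for ATP5F1A it reaches 84.4%.

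Over a longer list of Z genes with a known W partner in chicken, 15 of the 20 tested were called lower in females, beside 34.5% of all Z genes, and none higher. Their median difference was -0.62, or 63.7% of the male level, beside -0.35 over all Z genes. Among them were VCP, a hexameric ATPase that extracts ubiquitinated proteins, at 67.7 ± 11.3 against 130 ± 39.6 TPM (-0.89 ± 0.13), and SMAD2, a mediator of TGF-beta signals, at 4.71 ± 0.668 against 7.95 ± 1.697 TPM (-0.62 ± 0.10). HINT1, the Z partner of HINTW, measured 9.87 ± 3.05 against 14.5 ± 3.47 TPM (-0.50 ± 0.13; limma adjusted p = 0.02, and 0.0737 after median-ratio rescaling). The 5 that were not called, ARRDC3, CHD1, MIER3, SUB1 and ZSWIM6, had differences from -0.52 to -0.15. No test was made of whether genes with a W partner differ from other Z genes.

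Enzymes of liver metabolism on Z were mixed. HSD17B4 and AMACR, of peroxisomal side-chain oxidation of fatty acids and bile acid precursors, measured 221 ± 60.4 against 364 ± 94.7 TPM and 54.9 ± 11.4 against 93.1 ± 23.7 TPM. ACAA2, the mitochondrial thiolase of fatty acid oxidation, measured 249 ± 27.8 against 387 ± 65.6 TPM. All 3 were called lower, at -0.71 ± 0.15, -0.73 ± 0.12 and -0.62 ± 0.10. GALT, of galactose breakdown (-0.73 ± 0.08), MTAP, which salvages methylthioadenosine (-0.87 ± 0.14), and ALDH7A1, which oxidises betaine aldehyde and a lysine-derived aldehyde (-0.64 ± 0.08), were lower too. The complement component C6 was lower at 145 ± 38.9 against 231 ± 80.4 TPM (-0.65 ± 0.16; limma adjusted p = 0.0176), and its call was lost when libraries were rescaled by median ratios (adjusted p = 0.0575).

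Other Z genes with known roles in liver metabolism were not called. FBP1, a gluconeogenic phosphatase, ran from 1566.5 to 2380.6 TPM in females, with a median of 2021, and from 1408.8 to 2441.2 TPM in males, with a median of 2025. The female range lay within the male range, and the difference was 0.03 ± 0.09, with a 95% interval from -0.15 to 0.21, which leaves out -1. GHR, the growth hormone receptor, measured 185 ± 54.8 against 186 ± 63.7 TPM (0.02, interval -0.32 to 0.36). HMGCS1, an early enzyme of cholesterol synthesis, varied widely within each sex, and its interval was -0.39 to 0.74. LPL, lipoprotein lipase, had an interval from -0.89 to 0.22. These 4 intervals hold 0 and stay above -1. VLDLR, the VLDL receptor, was low, at 1.80 ± 0.721 against 1.41 ± 0.664 TPM (0.24 ± 0.15), where the pseudocount leaves no reading against -1. PRLR, the prolactin receptor, at a mean of 0.41 TPM, and DMRT1, the Z-linked testis-determining gene, at 0.0188 TPM, were below the filter and were not tested.

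SLC1A1, a transporter of glutamate and aspartate, ran against the rest of the Z chromosome. It ran from 17.1 to 26.59 TPM in females, with a median of 21.0, and from 0.65 to 5.89 TPM in males, with a median of 2.65. No female library overlapped a male one. The female mean was 786% of the male mean, a difference of 2.64 ± 0.15 (limma adjusted p = 4.78e-15), and the difference was 2.66, 2.44, 2.33 and 3.14 on the control, 1.8, 9 and 18 g/kg diets. Its neighbours in gene order did not share it. On one side RFX3, PUM3 and VLDLR were at 0.15, -0.31 and 0.24, and on the other CDC37L1, AK3 and RCL1 were at -0.23, -0.42 and -0.43, of which RCL1 was called lower.

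The other 5 Z genes called higher in females differed far less and overlapped between the groups. EPB41L4A, a membrane-skeleton protein of the band 4.1 family, measured 5.47 ± 1.13 against 3.77 ± 1.58 TPM (0.52 ± 0.13). CA9, a membrane-bound carbonic anhydrase, measured 15.0 ± 4.55 against 10.4 ± 2.79 TPM (0.51 ± 0.13). PTGER4, a prostaglandin E receptor, measured 3.43 ± 1.51 against 1.605 ± 0.799 TPM (0.69 ± 0.18), and its lowest female library, at 0.37 TPM, lay below every male library. ARID3C, a DNA-binding protein, measured 3.07 ± 1.198 against 1.56 ± 1.04 TPM (0.62 ± 0.16), and ENHO, the precursor of the peptide adropin, 1.79 ± 0.898 against 0.949 ± 0.352 TPM (0.46 ± 0.12), with all 12 females above the male median for both. Their limma adjusted p-values ran from 0.0177 to 0.0285, and ENHO was added after its values were seen. All 5 lost the call in at least 1 fit with another setting or with 1 or 2 libraries left out. ENHO and ARID3C are 3 tested genes apart in gene order, with RPP25L and DCTN3, both lower in females at -0.72 and -0.98, between them.

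CAPSL, a calcium-binding protein of the calcyphosine family, had the largest drop of any tested Z gene and was singled out for that after its values were seen. In 10 of the 12 female libraries it ran from 3.82 to 12.69 TPM, below all males, which ran from 31.11 to 111.15 TPM. The other 2 female libraries, at 51.58 TPM (18 g/kg replicate 4) and 80.35 TPM (1.8 g/kg replicate 8), lay within the male range. The difference over all libraries was -2.33 ± 0.29 (limma adjusted p = 7.19e-07), so the female mean of 18.8 ± 23.0 TPM describes neither kind of library. On its 2 sides IL7R and LMBRD2 were at -0.01 and -0.34, neither of them called.

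The female deficit was spread along the chromosome. In windows of 11 neighbouring tested genes the median ran from -0.73 to -0.05, and 0 of 503 windows had a median above 0. Shorter stretches were not examined this way, and some near neighbours such as GHR, SELENOP1 and HMGCS1 had values above 0 (0.02, 0.21 and 0.18).

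**Figure D4:**
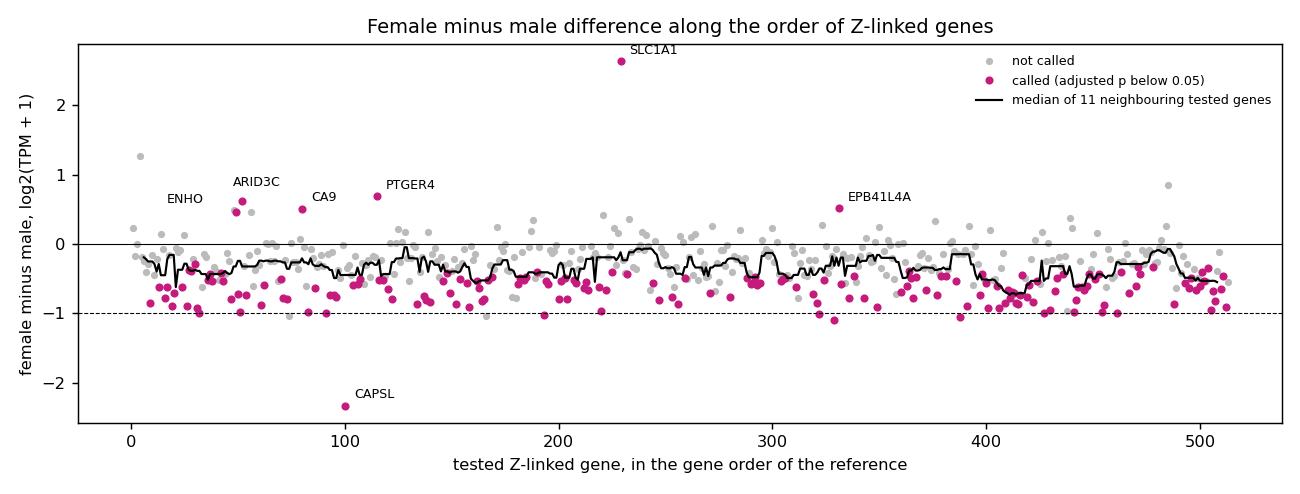
Female minus male difference in log2(TPM + 1) (y axis) of 513 tested Z-linked genes in the gene order of the reference (x axis, rank and not distance), with genes called at a limma adjusted p below 0.05 in colour and the median of 11 neighbouring genes as a line. The line stays between -0.73 and -0.05, SLC1A1 stands alone at 2.64, and CAPSL lies at -2.33.

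Few autosomal genes differed between the sexes. Of 10639 tested, 40 were called (0.376%), 25 higher (0.235%) and 15 lower (0.141%) in females, and 584 had an unadjusted p below 0.05. Over the 32 autosomes with at least 50 tested genes the median difference ran from -0.07 to 0.02. All 40 had the direction of the fit within each of the 4 diets, in the libraries that made the calls.

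LOC426626, on chromosome 28, was the one autosomal gene whose groups did not overlap (0.0094% of those tested). It ran from 80.92 to 122.97 TPM in females, with a median of 107, and from 37.62 to 73.13 TPM in males, with a median of 48.4. The difference was 1.13 ± 0.09 (limma adjusted p = 2.56e-11), and within diets it was 1.17, 1.14, 1.08 and 1.15. It was called in all 32 fits that left out 1 library. CTSEAL, a cathepsin E-A-like aspartic protease on chromosome 1, showed the largest autosomal difference, at 2.43 ± 0.30 (adjusted p = 5.8e-07). It ran from 14.29 to 94.47 TPM in females, with a median of 26.1, and from 0.49 to 21.69 TPM in males, with a median of 3.85, so the groups overlapped, with all 12 females above the male median.

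The other 8 autosomal genes higher in females with the smallest p included 3 enzymes or binding proteins of metabolism. TIGAR, a phosphatase of fructose 2,6-bisphosphate, measured 11.7 ± 3.10 against 6.89 ± 1.36 TPM (0.65 ± 0.11; limma adjusted p = 0.000175). TDH, L-threonine dehydrogenase, which starts threonine breakdown, measured 268 ± 113 against 148 ± 77.6 TPM (0.90 ± 0.20; adjusted p = 0.00522). ACBD7, which binds acyl-CoA, measured 50.4 ± 20.2 against 23.3 ± 9.49 TPM (1.06 ± 0.22). Regulators were HNF4beta, a nuclear receptor related to HNF4A, at 67.3 ± 10.997 against 48.9 ± 9.37 TPM (0.44 ± 0.10), PRKAR2B, a regulatory subunit of protein kinase A (0.56 ± 0.12), YOD1, a deubiquitinase (0.48 ± 0.10), and RAB3IP, an activator of the GTPase RAB8 (0.56 ± 0.13). LOC769590 was at 1.13 ± 0.24. Within diets TIGAR ranged from 0.23 in control to 0.88 at 18 g/kg, and TDH from 0.41 at 18 g/kg to 1.42 at 1.8 g/kg, with 2 to 4 female libraries in each.

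The 15 genes lower in females had differences from -0.96 to -0.32. IAH1, an esterase, measured 19.4 ± 4.60 against 27.3 ± 4.48 TPM (-0.43 ± 0.09; limma adjusted p = 0.00307), and ACY1, an aminoacylase that frees amino acids from their N-acetyl forms, 51.5 ± 9.86 against 68.3 ± 10.6 TPM (-0.42 ± 0.09; adjusted p = 0.00451). CMC2, of cytochrome c oxidase assembly (-0.47 ± 0.11), and CNPY2, a protein of the endoplasmic reticulum (-0.47 ± 0.11), had all 12 females below the male median. IGFALS, the acid-labile subunit that carries IGF in blood, ran from 25.37 to 60.97 TPM in females, with a median of 42.4. In males it ran from 32.52 to 91.11 TPM, with a median of 58.9. The groups overlapped, 11 of 12 females lay below the male median, and the difference was -0.54 ± 0.14 (adjusted p = 0.0232). COMTD1, with a methyltransferase domain, measured 184 ± 77.0 against 312 ± 94.8 TPM (-0.76 ± 0.19). NMRAL1, an NADPH sensor (-0.61 ± 0.16), P3H1, a collagen prolyl hydroxylase (-0.32 ± 0.08), and MFSD13A (-0.39 ± 0.10) were lower at low to moderate levels. HIST1H2A4, a histone H2A row of a multi-copy family whose reads may be split between copies, was at -0.96 ± 0.23. The calls of HIST1H2A4, COMTD1, IGFALS, NMRAL1, P3H1 and MFSD13A held in 31, 30, 30, 29, 28 and 25 of the 32 fits that left out 1 library.

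**Figure D5:**
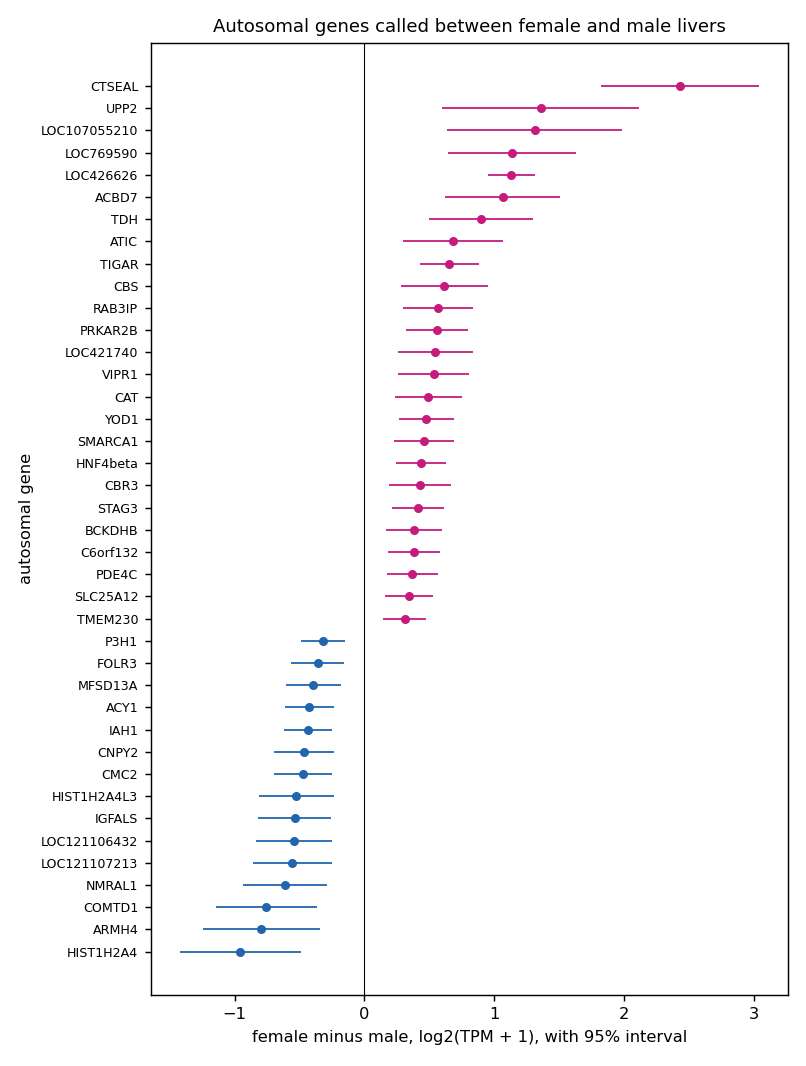
Female minus male difference in log2(TPM + 1) with its 95% interval (x axis) for the 40 autosomal genes called at a limma adjusted p below 0.05 (y axis, ordered by difference). The 25 genes above the break were higher and the 15 below it lower in females, with CTSEAL at 2.43 at the top and HIST1H2A4 at -0.96 at the bottom.

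The autosomal calls depended on single libraries more than the Z and W calls did. Of the 40 genes, 16 were called in every fit that left out 1 of the 32 libraries, against 146 of 183 on Z and 46 of 48 on W. Differences of the 40 stayed between 0.80 and 1.21 times their value in those fits, with no change of sign. The autosomal count fell to 22 without the 1.8 g/kg female replicate 3 and to 26 without the 9 g/kg female replicate 7, and with both left out it was 14.

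In the pathway lists, few autosomal members were called, as over the autosomes at large (0.376%). Of 31 lists of liver functions and cell types, 22 had no called member in limma. Of their 307 tested entries, 29 had an unadjusted p below 0.05, beside 584 of 10639 autosomal genes and 307 of 513 Z genes. The entries hold members on autosomes and on Z, so neither share is a like background. Called autosomal members were found in 3 lists. These were IGFALS in the growth hormone, insulin and thyroid axis (1 of 23 tested), CBS in one-carbon metabolism and ATIC in purine synthesis. In these lists 5 of 23, 5 of 19 and 4 of 16 tested members had an unadjusted p below 0.05. CBS, which commits homocysteine to cysteine, measured 74.3 ± 20.7 against 48.6 ± 17.2 TPM (0.61 ± 0.16; limma adjusted p = 0.0348). ATIC, which completes the purine ring that birds excrete as uric acid, measured 5231 ± 2046 against 3038 ± 1033 TPM (0.68 ± 0.19; adjusted p = 0.0439). Others of the same route were not called, with PPAT at 0.44 ± 0.22, ADSL at 0.44 ± 0.22, PAICS at 0.39 ± 0.22 and GART at 0.34 ± 0.11. CAT, catalase, at 479 ± 87.5 against 345 ± 83.6 TPM (0.49 ± 0.13), and UPP2, a uridine phosphorylase, at 23.9 ± 24.7 against 7.32 ± 9.84 TPM (1.35 ± 0.37), were called too and were picked after their values were seen. CBS, ATIC and UPP2 were called in 20, 11 and 11 of the 32 fits that left out 1 library. After median-ratio rescaling their limma adjusted p-values were 0.0512, 0.11 and 0.0574. These 3 genes kept the call in 4, 5 and 2 of 8 other settings. CAT kept it in all 8 and in 27 of the 32 fits. Some lists without a call had nearly all values below 0, beside 5095 of 10639 autosomal genes. In fatty acid synthesis it was 17 of 18 genes (median -0.22), none on Z. In cholesterol synthesis and uptake it was 17 of 19 (-0.23), where 3 of the 19 were on Z and the autosomal members had a median of -0.20. In heat shock and the unfolded protein response it was 21 of 22 (-0.22), with 1 of the 22 on Z. Median summed levels in females and males were 1734 against 2201 TPM for fatty acid synthesis and 5361 against 6302 TPM for heat shock. For cholesterol synthesis and uptake they were near equal, 2291 against 2283 TPM. Other lists leaned the other way, with 15 of 22 above 0 in fatty acid oxidation, 13 of 19 in one-carbon metabolism and 11 of 16 in purine synthesis. The arginine, ornithine, polyamine and creatine list, with no member on Z and none called, had 13 of 19 below 0 (median -0.14). In it 5 of the 19 had an unadjusted p below 0.05, beside 584 of 10639 autosomal genes. No test was made of these counts. All other called list members, HSD17B4, ACAA2, AMACR, GALT, ALDH7A1, MTAP, C6, NDUFS4, COX7C and ATP5F1AZ, lie on Z.

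Among genes of sex hormone response, none on an autosome was called. The vitellogenins VTG1 and VTG2 averaged 0.00583 and 0.0533 TPM in females and 0.0145 and 0.0195 TPM in males, below the filter, and neither was above 0.26 TPM in any library. VTG2 was above 0 in 10 of 12 female and 4 of 20 male libraries, with medians of 0.035 and 0 TPM, at levels too low to test. APOV1, the yolk apolipoprotein also called VLDL-II, had a median of 1.13 TPM in females and 0.60 TPM in males, with single libraries at 215.95 TPM in a female and 173.75 TPM in a male (0.49 ± 0.79; limma adjusted p = 0.933). ESR1, the oestrogen receptor alpha, measured 14.5 ± 5.27 against 12.7 ± 4.43 TPM (0.23 ± 0.18). IGF1 measured 19.8 ± 9.26 against 22.6 ± 6.64 TPM (-0.36 ± 0.24; adjusted p = 0.787). Of 9 tested genes on the yolk and egg list, 5 had values above 0 and 4 below, and limma called 0 (0 had an unadjusted p below 0.05). Of 18 tested genes of sex steroid metabolism and reception, HSD17B4 on Z was the one called, and 2 had an unadjusted p below 0.05.

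Markers of cell types gave no call. Over 11 marker lists 0 of 111 tested entries passed the adjusted threshold in limma. An unadjusted p below 0.05 was found for 10, beside 584 of 10639 autosomal genes and 307 of 513 Z genes. Some of the entries lie on Z, so the autosomal share is not a like background. With 0.376% of all autosomal genes called, a count of 0 is near the background. Hepatocyte markers summed to 124130 to 198700 TPM in female and 112110 to 209500 TPM in male libraries, and their median difference was -0.02. Of the 18 tested, 4 had an unadjusted p below 0.05, all among the 17 on autosomes. The median hepatocyte sum was higher in females, 165190 against 148710 TPM. All 13 macrophage and Kupffer cell markers had values below 0 (median -0.29), beside 5095 of 10639 autosomal genes. Their sums were 383 to 2148 TPM in females and 433 to 3974 TPM in males, with near-equal medians of 1042 and 1044 TPM. The 6 heterophil markers had a median of -0.49, led by S100A12 at -1.27 ± 0.39 (adjusted p = 0.0976). An unadjusted p below 0.05 was found for 3 of the 6. Their sums were 153 to 625.3 TPM in females and 133 to 1685 TPM in males, and the median sum was higher in females, 357 against 276 TPM. CATHB1 was listed at 0 in all female libraries, but its male levels are not reported here, so this gives no comparison of the sexes. All 24 tested cell cycle genes (median -0.26) and 23 of 26 interferon response genes (median -0.27) also lay below 0, none called, with 1 and 2 at an unadjusted p below 0.05. In each of these lists the range of summed levels in males covered or nearly covered that in females, and their part in the called autosomal genes was not tested.

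The difference between the sexes was not found to depend on diet. A moderated F test of the sex by diet terms in limma called 0 of 11338 genes (0%), with 340 at an unadjusted p below 0.05 and a lowest adjusted p of 0.942. With 2 to 4 female libraries per diet the test has little reach, and a missed threshold does not show equal differences. Within diets, where no test was made, the Z median was -0.50 in control, -0.55 at 1.8 g/kg, -0.21 at 9 g/kg and -0.17 at 18 g/kg, and the autosomal median was -0.04, -0.16, 0.12 and 0.10. Taken per library as the Z deviation less the autosomal deviation, the female minus male difference was -0.46, -0.36, -0.34 and -0.31. NDUFAF2 stayed between -1.004 and -0.86 across the 4 diets and TXN between -1.05 and -0.88, while ATP5F1AZ ran from -1.20 to -0.65 and IGFALS from -0.73 to -0.17.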

How the data were processed

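Total RNA of 32 liver samples was extracted with TRIzol, poly(A)-selected, built into stranded Illumina libraries and sequenced in pairs, per the labels' protocols. The labels' design text speaks of more liver samples than the 32 given here. The submitters' processing notes name RSEM, StringTie, HISAT2 and fastp without versions. The genome build is not given in the sources used here. The authors deposited 1 table of TPM for 25619 gene IDs. Each library summed to 998707 to 999281 TPM, so a value is a share of its own library. Read depth is unknown, so no interval that needs counts is given.

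Chromosome membership, gene order and names came from a RefSeq gene table (assembly GRCg7b), where 25368 IDs matched by symbol, 13 by locus tag and 238 not at all. Start coordinates served only to rank genes along each chromosome, and no sequences were used. After the step to log2(TPM + 1), 11338 genes whose mean TPM was 1 or more, HINTW left out, were fitted in limma 3.58.1 (R 4.3.3) on sex and diet, with moderated variances that follow mean expression. The 2-sided p-values were adjusted by Benjamini-Hochberg over all tested genes and called below 0.05. The interaction was a moderated F test. Differences are female minus male ± SE on log2(TPM + 1), which understates changes of low genes. Sex was not in the labels and rests on 1 measured transcript. The procedure was tested on simulated data.

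Genes were named by smallest p among called genes (10 autosomal in each direction, 10 lower and 5 higher on Z), with called list members and a set of hormone and lipid genes whatever their p (some are not reported here), and W genes and Z partners in part by range and count. The groups, members and lists were chosen with earlier results of these data known. Gene families, the W and Z pairs, CAPSL, ENHO, CAT, UPP2 and the removal of 2 libraries together were chosen after values were seen. Alternatives were another pseudocount, other filters, rescaling, no diet term, a replicate block, no variance trend, library weights, single diets and leaving out each library.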

Additional observations from a re-analysis of the deposited data

Results flagged for a closer look

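Among 65 groups of 4 to 6 libraries of one sex on one diet, examined for the genes plotted or followed within diets, 3 held a library far from the others of its group, and chance alone gives about 5% of groups. LOC426626 was 38.97 TPM in the male 1.8 g/kg replicate 6, below the other 4 males of that diet at 50.83 to 54.12 TPM, and still below every female library. TDH was 378.6 TPM in the male 18 g/kg replicate 1, against 64.66 to 125.8 TPM in the other 4. ACY1 was 40.23 TPM in the female 9 g/kg replicate 7, against 53.48 to 55.22 TPM in the other 3. No cause was tested.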

How the results depend on the processing

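Direction and call of the comparison were recomputed under 8 other settings and without each library. Over all genes 189 to 317 were called in other settings and 234 to 289 with libraries left out, and on Z 134 to 200 and 148 to 190 were lower in females. Z genes higher in females numbered 18 without a filter and 2 with a mean of at least 5 TPM, and 4 to 7 with libraries left out. W genes numbered 88 and 23 under the same filters. The Z median was -0.042 without a filter, where many genes lie near 0. Array weights called 70 autosomal genes, 40 higher and 30 lower. Whether the replicate numbers pair the libraries is not known. Same-numbered libraries of different diets correlated at -0.20 to 0.27 (median 0.06 over 48 pairs, against -0.01 over 336 other pairs). A replicate block beside diet called 63 autosomal genes, 43 of them higher. With the block 12 named genes were no longer called, at an adjusted p of 0.0573 to 0.148: UBE2R2L, EPB41L4A, CA9, HIST1H2A4, CNPY2, COMTD1, IGFALS, NMRAL1, MFSD13A, CBS, ATIC and UPP2. Leaving out 1 library, or the 2 named in the text together, gave 14 to 47 autosomal genes, 10 to 31 higher and 4 to 20 lower. The interaction called 0 to 2 genes. The sign turned for some uncalled genes. NEDD4L was -0.0148 with array weights and -0.0179 to 0.419 with libraries left out, and SKA1 was 0.0428 with the block. With libraries left out GHR was -0.0632 to 0.148, FBP1 -0.00678 to 0.0625 and HMGCS1 -0.00355 to 0.317. APOV1 was 0.489 in the main fit and -0.12 to 0.93 with libraries left out. Its sign turned only without the female 1.8 g/kg replicate 7, where it measured 215.95 TPM. Of the 40 autosomal genes, 27 were called in all of 6 other settings. The cause of these moves was not tested, except that other filters test other numbers of genes. Read depth is unknown and limits low genes such as ENHO.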

Other observations

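The uneven number of females per diet enters the diet comparisons of these libraries. With diet alone in the model, the median Z gene differed between 9 g/kg and control by -0.14 on the log2 scale, and with sex added by -0.05. The autosomal median was 0.01 without sex and 0.00 with it. For single genes the same contrast of 9 g/kg with control moved from 0.62 to 0.45 for ATIC, from 1.59 to 1.25 for UPP2, from 1.77 to 1.16 for CTSEAL, from 0.39 to 0.16 for TDH and from 0.27 to -0.01 for LOC426626 when sex was added. At the other doses some differences from control grew when sex was added: UPP2 moved from -0.65 to -0.82 at 1.8 g/kg and from -0.71 to -0.87 at 18 g/kg, and TDH from -0.73 to -0.84 and from -0.47 to -0.58. CTSEAL moved from 0.61 to 0.30 at 1.8 g/kg and from 0.07 to -0.23 at 18 g/kg. For a single gene, the shift is set by its sex difference and by the share of females in the diets compared. The genes named here were called between the sexes, so their shifts are no separate result. These are values of the 2 models with no test of their difference.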
